A study of Mus musculus with 12 samples.

Results

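The genes described here make peptides and load them onto major histocompatibility complex (MHC) class I molecules. They are the 10 symbols H2-K1, H2-D1, B2m, Tap1, Tap2, Tapbp, Psmb8, Psmb9, Psmb10 and Nlrc5, chosen by name from the 24452 symbols of the count table. All 10 passed the filter on low counts.

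RNA was sequenced from small pieces of kidney cortex of C57BL/6 mice, labelled adult males, in 12 stranded mRNA libraries, with 3 in each of 4 groups. GN_captopril and GN_water mice had glomerulonephritis (GN), an inflammation of the filtering units of the kidney. It was induced by intraperitoneal horse spleen apoferritin (10 mg, 5 times weekly) with lipopolysaccharide of Salmonella minnesota as adjuvant (100 micrograms, 3 times weekly) for 6 weeks. Control_captopril and Control_water mice were injected with saline instead, and kidneys were taken at week 9. The captopril groups are labelled as treated with captopril, an inhibitor of angiotensin-converting enzyme, with no dose in the labels, and the water groups as given water. The adjuvant is part of the GN groups only, so its effect and that of apoferritin cannot be told apart. Whether animals were pooled is not stated, although titles carry pairs of numbers, and p-values measure the spread between these libraries, which may be technical.

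MHC class I molecules show fragments of a cell's own proteins to CD8 T cells, on nearly every nucleated cell. The proteasome cuts proteins into peptides, the Tap1 and Tap2 transporter carries the peptides into the endoplasmic reticulum, and tapasin (Tapbp) helps to load them onto a heavy chain (H2-K1 or H2-D1) paired with the light chain beta-2 microglobulin (B2m). Under interferon gamma the catalytic subunits Psmb5, Psmb6 and Psmb7 of the standard proteasome are replaced by Psmb8, Psmb9 and Psmb10 to form the immunoproteasome. The same signal induces Nlrc5, a coactivator that binds class I promoters through factors already sitting there.

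Libraries held 14.2 to 22.8 M counts (M, mega). Proximal tubule markers, which define kidney cortex, summed to 8521 to 14532 CPM and podocyte markers to 338 to 653 CPM, so the labelled tissue was present in all 12. The groups did not carry 1 set of sex-linked transcripts, although every mouse is labelled male. The summed level of 4 Y-linked genes, in CPM (counts scaled to a common library size), was 124 to 129 in GN_captopril, 0 to 0.0458 in GN_water, 0.0461 to 0.101 in Control_captopril and 121 to 144 in Control_water, and Xist was at 181 to 212 CPM in GN_water and 314 to 375 CPM in Control_captopril, against at most 0.182 CPM in the other libraries. Ren1, the renin gene, was also 438 to 691 CPM in GN_captopril, 20.8 to 30.2 in GN_water, 63.4 to 82.8 in Control_captopril and 1083 to 1794 in Control_water. Inhibition of angiotensin-converting enzyme is known to raise renin transcripts, and in the controls Ren1 was lower under the captopril label. Whether labels were exchanged was not tested. Group names below are therefore those of the labels, and a treatment label within a disease label cannot be told apart from the marker class. The GN average, which sets the 6 GN libraries against the 6 control libraries, holds 3 libraries of each marker class on each side. Adrenal cortex markers summed to 355 CPM in Control_captopril replicate 3 and to 119 CPM in GN_captopril replicate 3, against 0.931 to 19.3 CPM in the other 10 libraries.

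Of the 10 genes, 7 lie on chromosome 17 in the mouse MHC, over 1.35 Mb from Tapbp (chr17:33919478-33929290, GRCm38) to H2-D1 (chr17:35263094-35267497). H2-K1 lies near Tapbp at chr17:33996012-34000619. Psmb9 (chr17:34182030-34187330), Tap1 (chr17:34187556-34197225), Psmb8 (chr17:34198195-34201454) and Tap2 (chr17:34204479-34216321) stand together within 34.3 kb, and the starts of Psmb9 and Tap1 point away from each other across 225 bases. B2m is on chromosome 2 (chr2:122147687-122153082), and Psmb10 (chr8:105935728-105938392) and Nlrc5 (chr8:94434335-94527272) are on chromosome 8.

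The stretches below stand before the transcript starts that RefSeq promoter windows give for the chain genes and Tap1, and are shown because they hold the short motifs known from class I promoters. They are from RefSeq (GRCm38.p6), written 5′ to 3′ on the strand of the gene. Capitals mark matches to a kappaB site (the capitals of the upstream H2-K1 line, and in B2m the capitals after atg, a kappaB site of the other strand), to the core of an interferon-stimulated response element (GAAA, any 2 bases, then GAAA, which opens B2m), to the core of the X2 box (TGACG) and to an inverted CCAAT box (ATTGG). On the minus strand H2-K1 upstream is chr17:34000429-34000458 and H2-K1 is chr17:34000359-34000388, and on the plus strand B2m is chr2:122147548-122147638, H2-D1 is chr17:35262993-35263022 and Tap1 is chr17:34187458-34187487.
H2-K1 upstream: GGGGATTCCCCatctccacagtttcacttc
H2-K1: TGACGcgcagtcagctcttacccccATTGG
B2m: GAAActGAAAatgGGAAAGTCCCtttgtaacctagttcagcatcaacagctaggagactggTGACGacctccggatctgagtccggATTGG
H2-D1: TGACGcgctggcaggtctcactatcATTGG
Tap1: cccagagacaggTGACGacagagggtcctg

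In H2-K1, H2-D1 and B2m the letters TGACG stood exactly 20 bases before ATTGG, at -41, -101 and -78 from the start. H2-K1 positions are counted from base 34000347, the start in the first of 2 windows for this gene, which lies inside the RefSeq gene record that runs to 34000619. GENCODE also places the H2-D1 stretch in the first exon of a longer H2-D1 transcript, and the Tap1 stretch in that of a longer Psmb9 transcript. RefSeq promoter windows, read over the 250 bases before each start and on both strands, were found for 8 of the 10 genes (all but Tap2 and Nlrc5). The spaced pair was in 30 of 32851 such windows, or 0.0913%, including those 3. Its motifs are known from class I promoters, so the pair in these 3 genes is not an independent finding. The parts of the pair overlap it and are common, with TGACG in 17.8% and ATTGG in 33.8% of windows. TGACG was in 5 of the 8 members' windows, where the Tap1 and Psmb9 matches are the same site read from both starts. The kappaB site of the upstream H2-K1 line is a string known from H-2 genes, so its matches in them are not an independent finding. It was in the H2-K1 and H2-D1 windows, at -111 and -171, and in 0.0304% of all windows. Of the other motifs, B2m held the interferon-stimulated response element core (2.98% of windows) and its kappaB site (0.140%), and Psmb8 held TTCNNNGAA (7.02%), the core of a gamma-activated site. From that kappaB site through ATTGG, H2-K1 and H2-D1 were identical at 89 of 100 positions.

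All 10 genes were higher in the GN average, in edgeR's quasi-likelihood test with Benjamini-Hochberg adjustment over all 14618 genes tested, where 16.3% of genes were called higher and 14.6% lower. Their median log2 fold change was 0.92, beside -0.01 for all genes. In 9 of the 10, no GN library overlapped a control library, which held for 5.38% of all genes in that direction. Levels are CPM after scaling by trimmed means. Since this is whole cortex, a different number of cells of a type and a different amount of RNA per cell cannot be told apart.

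**Figure D1:**
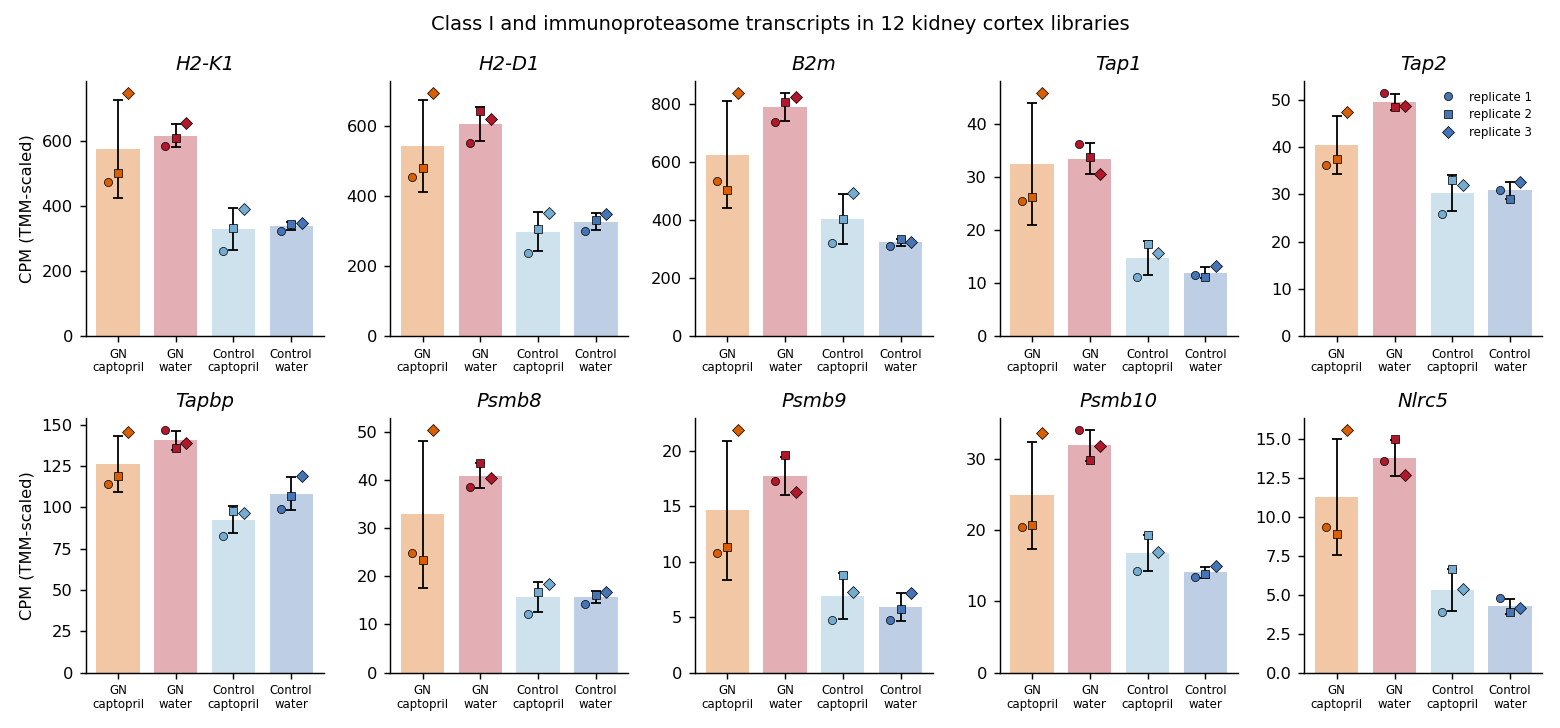
Level of each gene (CPM, linear axes from 0) in the 12 libraries. Bars are group means, error bars are SD over 3 libraries, and symbols are the replicates. GN groups stand above control groups in every panel, and replicate 3 (diamond) is the highest GN_captopril library in all 10.

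The class I chains were the most abundant transcripts of the set and rose by 1.79- to 1.94-fold in the GN average. H2-K1, a classical heavy chain, was at 475, 502 and 747 CPM in GN_captopril and 585, 608 and 656 CPM in GN_water, against 261, 332 and 391 CPM in Control_captopril and 324, 345 and 347 CPM in Control_water. The lowest GN library was above the highest control library, and the log2 fold change in the GN average was 0.84 ± 0.13 (SE; edgeR adjusted p = 0.000740). H2-D1, the other classical heavy chain, was at 455, 479 and 693 CPM in GN_captopril and 551, 643 and 620 CPM in GN_water, against 238, 305 and 350 CPM in Control_captopril and 300, 330 and 349 CPM in Control_water. Its groups did not overlap either, with a log2 fold change of 0.88 ± 0.12 (edgeR adjusted p = 0.000441). B2m, the light chain, was at 534, 503 and 838 CPM in GN_captopril and 737, 808 and 826 CPM in GN_water, against 319, 402 and 492 CPM in Control_captopril and 311, 335 and 323 CPM in Control_water. The gap was narrow, since GN_captopril replicate 2 (503 CPM) stood just above Control_captopril replicate 3 (492 CPM), and the log2 fold change was 0.96 ± 0.14 (edgeR adjusted p = 0.000784). H2-K1 and H2-D1 could share reads with other heavy chains, and their estimated counts were fractional in 12 and 10 of the 12 libraries, while B2m counts were whole in all 12.

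The transporter and its partner did not rise alike. Tap1, a subunit of the peptide transporter, was at 25.4, 26.2 and 45.8 CPM in GN_captopril and 36.2, 33.7 and 30.5 CPM in GN_water, against 11.2, 17.4 and 15.6 CPM in Control_captopril and 11.4, 11.2 and 13.1 CPM in Control_water. It rose 2.49-fold in the GN average (log2 fold change 1.31 ± 0.17, edgeR adjusted p = 0.000219), with no overlap. Tap2, the other transporter subunit, was at 36.2, 37.6 and 47.5 CPM in GN_captopril and 51.5, 48.6 and 48.8 CPM in GN_water, against 25.9, 33.0 and 32.1 CPM in Control_captopril and 30.9, 29.1 and 32.7 CPM in Control_water. It rose 1.46-fold, also with no overlap (log2 fold change 0.55 ± 0.07, edgeR adjusted p = 7.48e-05). Tapbp, which bridges the transporter and the empty class I molecule, was at 114, 119 and 146 CPM in GN_captopril and 147, 136 and 139 CPM in GN_water, against 83.0, 97.9 and 96.6 CPM in Control_captopril and 98.9, 107 and 119 CPM in Control_water. It had the smallest change of the 10 (1.33-fold, log2 fold change 0.41 ± 0.07, edgeR adjusted p = 0.000402), and it was the member whose GN and control libraries overlapped. Counts of Tap1, Tap2 and Tapbp were fractional in 8, 8 and 12 libraries, so reads shared with overlapping genes could be among them.

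In the GN average the 3 immunoproteasome subunits rose, whereas the subunits they replace were not called. Psmb8 was at 24.8, 23.3 and 50.4 CPM in GN_captopril and 38.6, 43.6 and 40.5 CPM in GN_water, against 12.2, 16.7 and 18.3 CPM in Control_captopril and 14.2, 16.2 and 16.7 CPM in Control_water (log2 fold change 1.22 ± 0.20, edgeR adjusted p = 0.00157). Psmb9 was at 10.8, 11.3 and 21.9 CPM in GN_captopril and 17.3, 19.6 and 16.3 CPM in GN_water, against 4.71, 8.80 and 7.23 CPM in Control_captopril and 4.75, 5.76 and 7.22 CPM in Control_water (log2 fold change 1.34 ± 0.21, edgeR adjusted p = 0.000873). In both, every GN library stood above every control library, and GN_captopril replicate 3 was the highest of the 12. Psmb10 was at 20.5, 20.7 and 33.6 CPM in GN_captopril and 34.1, 29.8 and 31.9 CPM in GN_water, against 14.3, 19.3 and 16.9 CPM in Control_captopril and 13.4, 13.8 and 15.0 CPM in Control_water (log2 fold change 0.87 ± 0.12, edgeR adjusted p = 0.000212). Its lowest GN libraries, both labelled GN_captopril, lay just above Control_captopril replicate 2. Psmb5, Psmb6 and Psmb7 had log2 fold changes of -0.03 ± 0.05, -0.07 ± 0.05 and -0.02 ± 0.05, and none of the 3 was called by edgeR (0 at an unadjusted p under 0.05) or by DESeq2. In GN_water against Control_water 2 of these 3 were called lower (23.7% of all genes), and in GN_captopril against Control_captopril 2 were called higher (20.3%). In the comparisons of libraries with the same sex-linked markers 0 were called (0 at an unadjusted p under 0.05 and 0 by DESeq2).

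Within a library, the ratio of each inducible subunit to its standard counterpart does not depend on depth. Per kilobase of transcript, Psmb8 over Psmb5 was 0.0860 to 0.190 in the 6 GN libraries and 0.0512 to 0.0774 in the 6 control libraries, without overlap (difference of mean log2 ratios 1.22, two-sided exact permutation test, p = 0.00216). Psmb9 over Psmb6 was 0.0494 to 0.0901 in GN libraries and 0.0203 to 0.0381 in control libraries (difference 1.40, exact permutation p = 0.00216). Psmb10 over Psmb7 was 0.128 to 0.240 in GN libraries and 0.0778 to 0.137 in control libraries, which overlap (difference 0.88, exact permutation p = 0.00649). The standard subunit transcript thus remained the more abundant of each pair in all 12 libraries. Adjusted over the 3 pairs, p was 0.00325, 0.00325 and 0.00649, and 0.00216 is the smallest p that the 924 arrangements of 6 against 6 libraries allow. The arrangements exchanged all 12 libraries freely and took no account of treatment label or marker class.

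**Figure D2:**
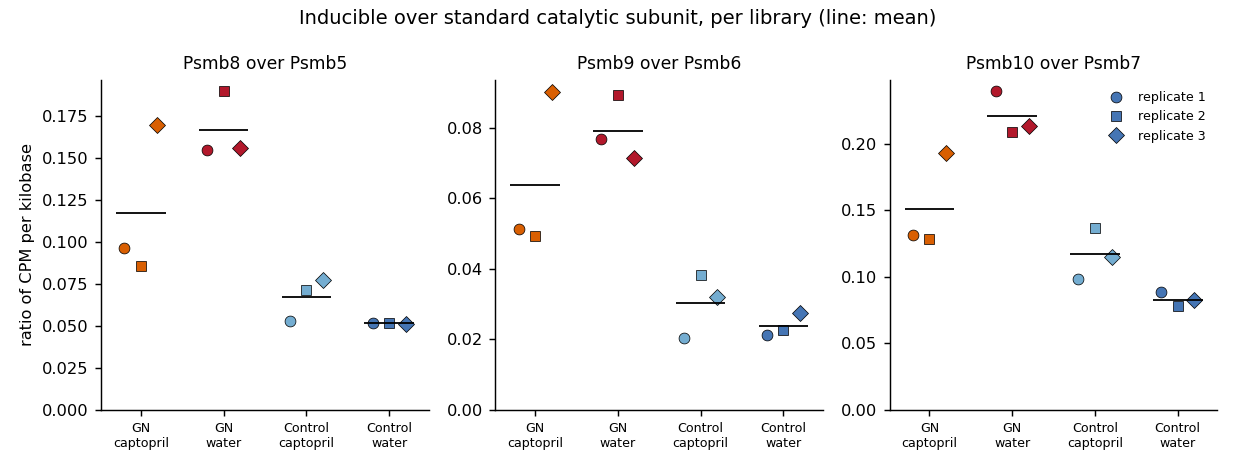
Ratio of CPM per kilobase of the inducible to the standard catalytic subunit, for 3 pairs, in each library (axes from 0, lines at group means). GN libraries are at 0.0860 to 0.190 and control libraries at 0.0512 to 0.0774 for Psmb8 over Psmb5, and the third pair overlaps.

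The rest of the proteasome was near 0 in the GN average. Of 11 non-catalytic core subunits 0 were called (0 at an unadjusted p under 0.05 and 0 by DESeq2), with a median log2 fold change of 0.03, and the most abundant, Psma4 and Psmb4, were at -0.09 ± 0.04 and -0.00 ± 0.04. Of 17 subunits of the regulatory particle, which recognises and unfolds ubiquitin-marked proteins, Psmc6 was called lower (-0.10 ± 0.03, edgeR adjusted p = 0.0334) and the others were not called. That call was lost without GN_captopril replicate 3. Of 9 activators and assembly factors, 2 rose, Psme1 (0.39 ± 0.08, edgeR adjusted p = 0.00284) and Psme2 (0.35 ± 0.09, edgeR adjusted p = 0.0123), which together form the interferon-inducible PA28 activator. Psme3, the related nuclear activator, was at -0.07 ± 0.04, and the assembly chaperone Pomp was at -0.01 ± 0.06. Away from the GN average the counts for the regulatory particle differed between comparisons. In GN_water against Control_water, 14 of the 17 regulatory particle genes were called lower (23.7% of all genes). In GN_captopril against Control_captopril 12 were called higher (20.3%) and 1 lower (19.3%). Both comparisons also set different marker classes against each other. Among libraries with the same markers, 1 was called lower in GN_water against Control_captopril (13.1%) and 1 in GN_captopril against Control_water (5.01%).

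**Figure D3:**
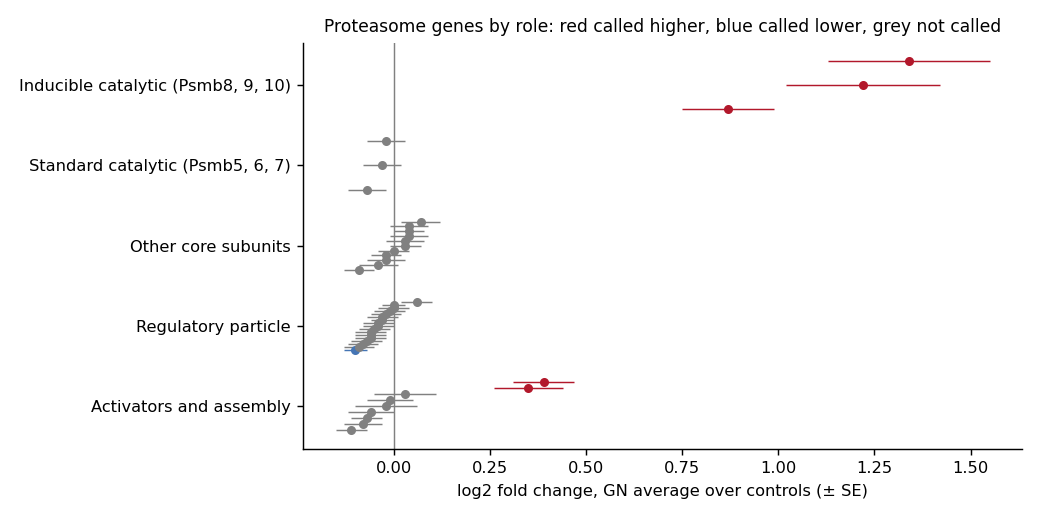
Log2 fold change (± SE) in the GN average over controls for proteasome genes grouped by role, each point a gene. The 3 inducible subunits lie between 0.87 and 1.34, Psme1 and Psme2 at 0.39 and 0.35, and the remaining genes between -0.11 and 0.07.

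Nlrc5 rose with the genes it is known to activate. It was at 9.37, 8.89 and 15.6 CPM in GN_captopril and 13.6, 15.0 and 12.7 CPM in GN_water, against 3.90, 6.63 and 5.36 CPM in Control_captopril and 4.79, 3.88 and 4.13 CPM in Control_water. No GN library overlapped a control library, and the rise was 2.61-fold (log2 fold change 1.38 ± 0.16, edgeR adjusted p = 3.10e-05). That was the largest fold change of the 10, but by limma on log2 RPKM Nlrc5 was at 0.82 and Psmb9 the largest at 1.31, and without Control_water replicate 3 Nlrc5 was at 1.37 and Psmb9 the largest at 1.42. Its counts ran from 64.0 to 365 per library, the lowest range of the set. Ciita, the relative of Nlrc5 that drives MHC class II genes, rose by a log2 fold change of 1.14 ± 0.13 (edgeR adjusted p = 2.43e-05). Of the 8 promoter-binding partners listed beside Ciita, Rfx5, a subunit of the factor at the X box, was higher (0.25 ± 0.07, edgeR adjusted p = 0.00932) and Creb1 was lower (-0.20 ± 0.06, edgeR adjusted p = 0.0129). The other 6 (Rfxap, Rfxank, Nfya, Nfyb, Nfyc and Atf1) were not called and lay between -0.14 and 0.05.

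Compared per kilobase of transcript, B2m had the highest level in every group, at 727 ± 215 CPM per kilobase in GN_captopril, 919 ± 54.7 in GN_water, 470 ± 101 in Control_captopril and 375 ± 13.5 in Control_water (SD, n = 3). H2-K1 followed at 355 ± 92.6 in GN_captopril, 381 ± 22.4 in GN_water, 203 ± 40.3 in Control_captopril and 209 ± 7.75 in Control_water. Nlrc5 was the lowest, at 1.63 ± 0.543 in GN_captopril, 1.98 ± 0.171 in GN_water, 0.763 ± 0.197 in Control_captopril and 0.615 ± 0.0680 in Control_water. By mean CPM, GN_water was the highest group and GN_captopril the next for all 10 genes. GN_captopril and GN_water libraries overlapped for every gene but Tap2. GN_captopril did not overlap the next control group, Tapbp excepted. The order of the control groups varied, with Control_water above Control_captopril for H2-K1, H2-D1, Tap2 and Tapbp and below it for the other 6, and their libraries overlapped for every gene but Tapbp.

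Among libraries with the same sex-linked markers, the members were higher in the GN libraries of both classes. In each of these comparisons the treatment label differs as well, so it cannot be told apart from GN there. In GN_water against Control_captopril, the libraries with Xist, all 10 genes were called higher (16.8% of all genes were, and 13.1% were lower) without overlap (25.4% of all genes in that direction), and their median log2 fold change was 0.99 beside 0.00 for all genes. The largest were Psmb8 (1.38 ± 0.28, edgeR adjusted p = 0.00489) and Nlrc5 (1.38 ± 0.21, edgeR adjusted p = 0.000365), and the smallest was Tapbp (0.61 ± 0.09, edgeR adjusted p = 0.000305). In GN_captopril against Control_water, the libraries with Y-linked transcripts, 9 of 10 were called higher (7.05% of all genes were, and 5.01% were lower) and the same number did not overlap (14.7% of all genes), with a median of 0.89 beside -0.02. Tap1 was at 1.44 ± 0.24 (edgeR adjusted p = 0.00511) and Nlrc5 at 1.39 ± 0.23 (edgeR adjusted p = 0.00259). Tapbp was not called there, at 0.22 ± 0.10 (edgeR adjusted p = 0.152). That count was 2 without Control_water replicate 1 and 3 without Control_water replicate 2.

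**Figure D4:**
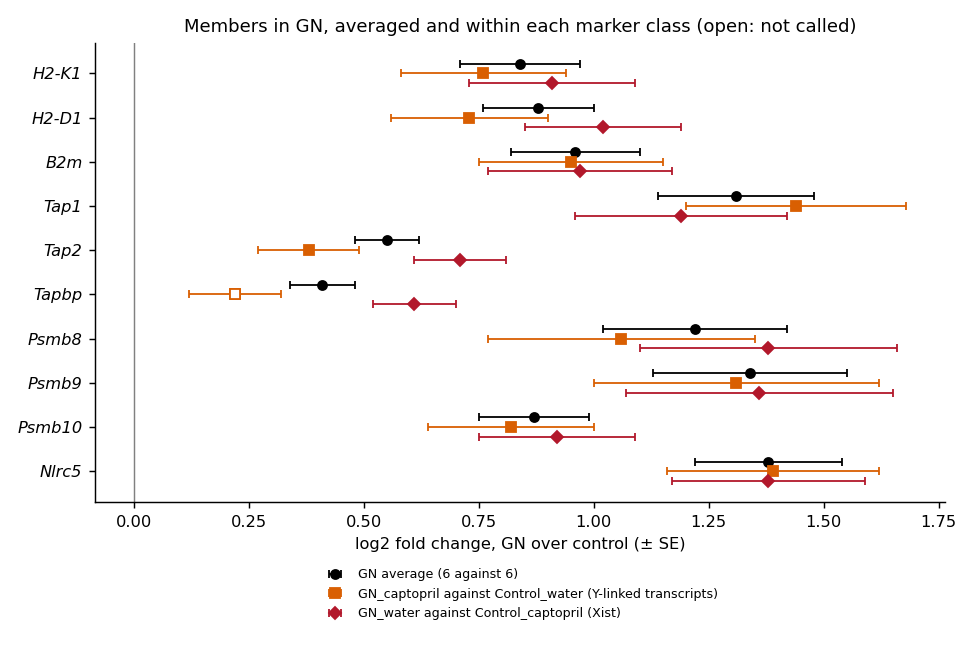
Log2 fold change (± SE) of each gene in the GN average and in the comparisons within each class of sex-linked markers. All points lie above 0, and Tapbp in GN_captopril against Control_water (0.22, open symbol) is the point not called at an adjusted p of 0.05.

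The comparisons that hold the treatment label constant set different marker classes against each other. All 10 genes were higher in GN_captopril against Control_captopril (20.3% of all genes were, and 19.3% were lower) without overlap (25.2%), with a median log2 fold change of 0.84, and 6 were called when Control_captopril replicate 1 was left out. That library had the lowest level of its group for all 10 genes. All 10 were also higher in GN_water against Control_water (27.3% of all genes were, and 23.7% were lower) without overlap (31.7%), with a median of 1.24. These comparisons share their libraries with those above and are not further replicates.

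In GN, the libraries labelled captopril were lower on average than those labelled water for all 10 genes, by log2 differences of 0.05 to 0.36 in size, and 1 passed the test. That was Tap2 (-0.30 ± 0.10, edgeR adjusted p = 0.0284), in a comparison where 25.4% of all genes were called lower and 19.5% higher. It was also the gene without overlap there, as were 31.7% of all genes in that direction. The median of the 10 was -0.29, beside -0.05 for all genes. Psmb10 (-0.36 ± 0.16, edgeR adjusted p = 0.0914) and B2m (-0.34 ± 0.20, edgeR adjusted p = 0.195) did not pass. GN_captopril replicate 3 decided this count. It was the highest of its group for all 10 genes, by a median log2 difference of 0.697 from the mean of the other 2 libraries (0.324 to 1.07). Without it, 9 of 10 genes were called lower (all but H2-K1), among them Psmb8 (-0.77, edgeR adjusted p = 0.000403), Psmb10 (-0.63, edgeR adjusted p = 0.000318) and B2m (-0.61, edgeR adjusted p = 0.00453). When any of the other 5 GN libraries was left out instead, 0 were called lower.

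The same library stood apart in other ways. Its 10 macrophage and monocyte markers summed to 972 CPM, against 493 and 499 CPM in the other GN_captopril libraries. Its leukocyte markers summed to 178 CPM, against 130 and 119 CPM, and its adrenal markers to 119 CPM, against 1.13 and 19.3 CPM. Its T and natural killer cell markers, at 33.4 CPM, were close to the 27.5 and 31.8 CPM of the others. The part of these differences in the member levels was not tested.

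**Figure D5:**
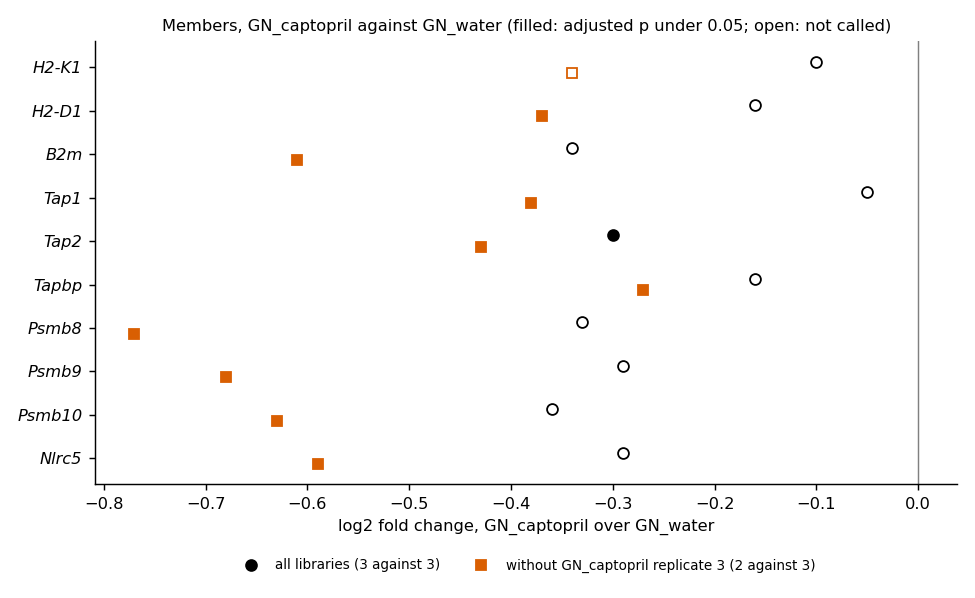
Log2 fold change of each gene in GN_captopril over GN_water, with all libraries and without GN_captopril replicate 3 (filled symbols are called at an adjusted p of 0.05). Every point is below 0, and 1 gene is called with all libraries against 9 without that replicate.

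Among controls, 0 of the 10 genes were called between Control_captopril and Control_water by edgeR or DESeq2 (1 at an unadjusted p under 0.05), where 15.2% of all genes were higher and 16.8% lower. Tapbp had the smallest p (-0.23 ± 0.10, edgeR adjusted p = 0.0847), and its libraries did not overlap, as for 22.1% of genes in that direction. Log2 differences of the others ran from -0.13 (H2-D1) to 0.32 (B2m). In the captopril average over both disease labels, 0 were called by edgeR or DESeq2 (2 at an unadjusted p under 0.05, Tap2 and Tapbp), with 3.14% of all genes higher and 3.40% lower. The double of that average is also the difference between the GN effects of the marker classes. Without GN_captopril replicate 3, 3 members were lower in that average (Tap2, Tapbp and Psmb8, edgeR adjusted p = 0.0413, 0.0164 and 0.0234), and 5 were without the 2 libraries richest in adrenal markers. The interaction, which asks whether the GN difference depends on the treatment label, called Psmb10 lower (-0.63 ± 0.24, edgeR adjusted p = 0.0483), where 26.9% of all genes were called lower. B2m had a value of similar size that did not pass (-0.66 ± 0.28, edgeR adjusted p = 0.0768). The Psmb10 call was lost under another scaling of the libraries. No member was called lower when any library was left out, except Control_captopril replicate 1 (4 lower) and GN_captopril replicate 3 (7 lower). The interaction is also the contrast between libraries with Y-linked transcripts and those with Xist.

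Other class I heavy chains also rose in the GN average. Of 16 listed, 14 were tested and 10 were higher in the GN average, with 0 lower (9 higher without GN_captopril replicate 3) and a median log2 fold change of 0.53 beside -0.01 for all genes. In GN_water against Control_water 11 were higher (27.3% of all genes) and 1 lower. In GN_captopril against Control_captopril 3 were higher (20.3% of all genes) and 0 lower (1 at an unadjusted p under 0.05, 0 by DESeq2). In GN_water against Control_captopril 7 were higher (16.8% of all genes), and in GN_captopril against Control_water 5 (7.05%), with 0 lower in both. H2-M2, a non-classical chain, was at 1.26, 2.47 and 3.01 CPM in GN_captopril and 4.58, 4.65 and 3.76 CPM in GN_water, against 0.359, 0.368 and 0.354 CPM in Control_captopril and 0.466, 0.182 and 0.193 CPM in Control_water. It had the largest change of the list in the GN average, with no overlap (3.23 ± 0.25, edgeR adjusted p = 5.86e-07). H2-Q4 (0.75 ± 0.10, edgeR adjusted p = 0.000244) and H2-M3, which presents formylated peptides (0.92 ± 0.14, edgeR adjusted p = 0.000214), also rose. H2-Q10, H2-Q1, H2-Q2 and H2-T22 were not called, at -0.34, -0.09, 0.50 and 0.32. Several of these genes are near-identical copies, so their single levels are uncertain. Other proteins that pair with beta-2 microglobulin mostly did not pass in the GN average, since Mr1 was higher (0.39 ± 0.10, edgeR adjusted p = 0.0111, a call lost without the 2 libraries richest in adrenal markers) and Fcgrt, Cd1d1 and Hfe were not called. Mr1 averaged 7.16 CPM in GN_captopril and 11.2 in GN_water, against 7.29 in Control_captopril and 6.43 in Control_water. In GN_water against Control_water 2 of these 4 were higher (27.3% of all genes), and in GN_captopril against Control_captopril 1 was lower (19.3%). Of 6 loading and trimming factors, Tapbpl, a tapasin-related peptide editor, was higher in the GN average (0.51 ± 0.09, edgeR adjusted p = 0.000756). The chaperones Calr (0.01), Canx (-0.03) and Pdia3 (0.08), the folding sensor Uggt1 (-0.05) and the trimming peptidase Erap1 (0.18) were not called.

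Genes that carry the interferon signal were higher as well. Of 16 tested of 17 listed, 11 were called higher and 0 lower in the GN average (16.3% and 14.6% of all genes), with a median log2 fold change of 0.46. Irf1, a transcription factor that activates class I and immunoproteasome genes, was at 38.4, 35.3 and 49.9 CPM in GN_captopril and 40.9, 37.6 and 35.4 CPM in GN_water, against 20.4, 24.6 and 20.0 CPM in Control_captopril and 19.0, 18.1 and 18.6 CPM in Control_water. Its groups did not overlap (0.98 ± 0.08, edgeR adjusted p = 1.91e-06). The receptor chains Ifngr1 (0.54 ± 0.06, edgeR adjusted p = 9.53e-06) and Ifngr2 (0.48 ± 0.06, edgeR adjusted p = 5.25e-05) also rose. The kinases Jak1, Jak2 and Tyk2 and the factors Irf2 and Irf3 were not called, between -0.02 and 0.12. In GN_water against Control_water 13 of the 16 were higher (27.3% of all genes) and 2 lower (23.7%). In GN_captopril against Control_captopril 9 were higher (20.3%). Ifng itself, the ligand, did not pass the filter on low counts and was at most 0.346 CPM in any library. All 5 NF-kappaB subunits were higher in the GN average (16.3% of all genes), among them Relb (1.12 ± 0.10, edgeR adjusted p = 1.42e-06) and Nfkb2 (0.64 ± 0.06, edgeR adjusted p = 1.77e-06). In GN_water against Control_water 5 were higher (27.3%, median 0.96), and in GN_captopril against Control_captopril 3 were (20.3%, median 0.16). Among libraries with the same markers, 4 were higher in GN_water against Control_captopril (16.8%) and 2 in GN_captopril against Control_water (7.05%).

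Receptors that read class I, and leukocyte markers, moved in the same direction. All 5 of the tested receptors (of 6 listed) were higher in the GN average by edgeR, and 4 by DESeq2 or without GN_captopril replicate 3, among them Cd8a (1.40 ± 0.18, edgeR adjusted p = 5.16e-05), Cd8b1 (2.43 ± 0.26, edgeR adjusted p = 8.95e-06) and the inhibitory receptor Pirb (2.68 ± 0.22, edgeR adjusted p = 1.07e-05). All 5 leukocyte markers and all 10 macrophage and monocyte markers were higher, with median log2 fold changes of 1.61 and 2.02, among them Cd52 (1.88 ± 0.13, edgeR adjusted p = 9.50e-07), Csf1r (0.70 ± 0.07, edgeR adjusted p = 1.14e-05) and the macrophage lysozyme Lyz2 (4.02 ± 0.29, edgeR adjusted p = 1.81e-05). So were all 11 tested T and natural killer cell markers (of 12), with a median of 1.75. That list also holds Cd8a and Cd8b1, so it is not separate from the receptors. Macrophage and monocyte markers summed to 493 to 972 CPM in GN_captopril, 1014 to 1427 in GN_water, 133 to 187 in Control_captopril and 159 to 168 in Control_water. T and natural killer cell markers summed to 27.5 to 33.4 CPM in GN_captopril, 39.2 to 51.0 in GN_water, 5.70 to 11.9 in Control_captopril and 9.15 to 10.7 in Control_water. None of these markers was at 0 in a whole group. In the GN average B cell markers were called in 2 of 4, dendritic cell markers in 3 of 6 and neutrophil markers in 3 of 3, all higher (16.3% of all genes). Proximal tubule markers were lower in 5 of 7, podocyte markers were lower in 3 and higher in 1 of 5, markers of the thick limb, distal tubule and collecting duct were lower in 2 of 5, and endothelial markers were higher in 5 and lower in 2 of 8. These directions did not hold in every comparison. In GN_water against Control_water 3 podocyte and 3 thick limb, distal tubule and collecting duct markers were higher (27.3% of all genes), and 0 lower. In GN_captopril against Control_captopril 5 and 3 of them were lower (19.3% of all genes), and 0 higher. In GN_captopril against Control_water 0 of 7 proximal tubule markers were called by edgeR (4 lower at an unadjusted p under 0.05, 2 by DESeq2). B cell and dendritic cell markers were higher in 4 of 4 and 5 of 6 in GN_water against Control_water (27.3% of all genes). In GN_captopril against Control_captopril they were higher in 0 of 4 (1 by DESeq2) and 1 of 6 (20.3%). B cell markers summed to 59.4 CPM in GN_water replicate 2, against 15.0 and 16.1 CPM in the other GN_water libraries. The part of the leukocyte markers in the rise of the members was not tested.

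The profile of each gene over the 12 libraries was compared with the mean profile of the members, as the root mean square difference in log2 CPM after centring each gene. Of genes outside the set, among 14618, H2-DMb1, a class II peptide-loading chain, was the nearest at 0.101, followed by H2-Q4 (0.128), the complement protease subunit C1ra (0.133), Ctsw (0.145), a protease of cytotoxic lymphocytes, and the kinase Camk1d (0.150). H2-DMb1 was nearer than any member, although the members are part of that mean, and the nearest member was Psmb10 (0.111). The profile was therefore not particular to the set. Among members, H2-K1 and H2-D1 were nearest to each other (0.062), and Tap1 and Nlrc5 likewise (0.129). Psmb9 was nearest to Tap1 (0.144), whose start lies beside its own. Tap2 and Tapbp were the nearest members to each other (0.118) and shared the smallest changes. Of the members, Tapbp was the farthest from the mean profile, at 0.309. It ranked 517 among all genes by nearness, with Tap2 at 116 and Nlrc5 at 101.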

How the data were processed

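Gene-level estimated counts and RPKM values were deposited as 2 tables, and the second served only as an alternative. The submitters' processing notes name Bowtie2, Partek and mm10. Not given in the sources used here are tool versions, annotation and the strand setting of the counting. The authors' expected counts were whole in 86.4% of entries and were rounded before testing. The deposited RPKM were made by the authors from reads, length and depth. The filter was filterByExpr of edgeR 4.0.16 (at least 10 counts, total at least 15), passed by 14618 genes. After TMM scaling, robust quasi-likelihood models in R 4.3.3 had a mean for each group, shared the spread of the 12 libraries and gave 9 contrasts. The threshold was an adjusted p (Benjamini-Hochberg, all genes tested) of 0.05, and SE came from the estimate and its F statistic. Counts of 0 were checked with DESeq2 1.42.0. Lengths were those of a principal transcript (GENCODE, GRCm38), and RefSeq gave loci and promoters, which need not be the authors' annotation. Ratios were tested by exact permutation (SciPy 1.17.1), and profiles used a pseudocount of 0.5 CPM. Alternatives were another scaling (RLE), no filter, DESeq2, a replicate block, limma 3.58.1 on log2 of RPKM plus 0.1, and leaving out libraries. All list members could be named, and for marker and proteasome lists up to 4 called genes or, where none passed, 2 by level. The members, lists and comparisons within a marker class were chosen with earlier results of these data known. Scripts were tested on simulated counts. Each member had 64.0 to 19650 counts in a library.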

Additional observations from a re-analysis of the deposited data

Results flagged for a closer look

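Psmb10 is given here because its GN difference differed between the treatment labels in the test of the interaction (log2 difference -0.63, edgeR adjusted p = 0.0483). Its GN difference was 0.56 ± 0.17 in GN_captopril against Control_captopril and 1.19 ± 0.17 in GN_water against Control_water (SE; edgeR adjusted p = 0.0216 and 0.000118). The treatment label and the class of sex-linked markers cannot be told apart in this contrast. The call was lost under RLE scaling (edgeR adjusted p = 0.0572), without a filter on low counts (edgeR adjusted p = 0.0676) and when any of 10 of the 12 libraries was left out (edgeR adjusted p up to 0.121). It was kept without Control_captopril replicate 1 (edgeR adjusted p = 0.0300) or GN_captopril replicate 3 (edgeR adjusted p = 0.000169).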

How the results depend on the processing

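In the GN average all 10 members were called higher under each of the 18 alternatives run, as they were in GN_water against Control_captopril and in GN_water against Control_water. Other counts of members moved, and the cause was not tested. In GN_captopril against GN_water, 1 was lower, with 9 without the 2 libraries richest in adrenal markers, 4 by limma on RPKM and 0 to 9 when a replicate was left out. In GN_captopril against Control_captopril, 6 to 10 were higher when a replicate was left out. In GN_captopril against Control_water the range was 2 to 9, and genes called over the whole table were 981 without the adrenal-rich libraries and 961 to 1739 when a replicate was left out, against 1764 with all libraries. In Control_captopril against Control_water, 0 to 1 were lower when a replicate was left out and 1 without the adrenal-rich libraries. In the captopril average 5 were lower without those libraries and 0 to 3 when a replicate was left out, and genes called were 561 to 1520 then, against 956 with all libraries. In the interaction, 1 was lower, with 0 under RLE scaling, 0 without a filter, 7 without the adrenal-rich libraries, 3 by limma on RPKM and 0 to 7 when a replicate was left out. Replicate numbers did not clearly pair the libraries. Correlations of deviations between same-numbered libraries ran from -0.235 to 0.236, and 4 of 18 were over 0.1. Between libraries with different numbers they ran from -0.28 to 0.297, and 5 of 36 were over 0.1. With the replicate number as a block, members called lower were 1 in Control_captopril against Control_water, 1 in the captopril average and 2 in the interaction. Counts of pathway lists without those libraries, or without GN_captopril replicate 3, were added after seeing the data. In both settings 9 other class I heavy chains and 4 receptors that read class I were higher, against 10 and 5 with all libraries. Mr1 was lost from the partners of beta-2 microglobulin in the first setting (0 higher), and Psmc6 from the regulatory particle in both (0 lower). Where a group is left with 2 libraries, its spread is taken from all groups.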
